A study of Rattus norvegicus with 6 samples.

Results

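The question was how far the response of HRAS-transformed rat fibroblasts to a DNA-demethylating drug differed from that of the immortal cells they derive from. 208F cells are immortal rat fibroblasts that are not transformed, and the FE8 line was made from them by transformation with oncogenic HRAS. Treated cells received 0.3 µM 5-aza-2'-deoxycytidine (decitabine) for 96 h. RNA was hybridised to the Affymetrix rat genome array, with 1 array of untreated 208F, 1 of untreated FE8, 2 of treated 208F and 2 of treated FE8. All 6 arrays of the series enter, and all 4818 probe sets that are not array controls. For each probe set the drug effect in a line was the mean of the treated arrays minus the untreated array, on log2(signal + 64). The quantity described throughout, called the difference, is the drug effect in FE8 minus the drug effect in 208F. A positive difference means a more positive drug effect in FE8, and a difference of 1 is a factor of 2 on this scale, which understates changes of dim probe sets.

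Decitabine is a cytidine analogue that is built into DNA and traps DNA methyltransferases, so that methylation of CG dinucleotides is lost as cells divide. Genes whose promoters were silenced by methylation can then be transcribed, while other genes move as part of stress, interferon and growth responses. HRAS is a small GTPase that signals through the RAF-MEK-ERK kinases, and its oncogenic form is known to alter the cytoskeleton, matrix and growth control of fibroblasts. FE8 is the only transformed line here, so transformation and any other feature of this derivative cannot be told apart. The labels do not say whether the treated duplicates came from separate cultures, so p-values measure only the spread between these arrays, which may be technical.

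The promoters of the 3 genes whose difference passed the test are shown first because the drug acts on CG dinucleotides, here in capitals. They are RefSeq sequences of assembly GRCr8, from 250 bases before to 50 bases after the gene's start, each written 5′ to 3′ on the strand of its gene. Plin2 lies on the minus strand at chr5:106228969-106229268 and holds 17 CG, Ocm on the plus strand at chr12:15700376-15700675 and holds 14, and Ptprn on the minus strand at chr9:84204774-84205073 and holds 19.

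Plin2: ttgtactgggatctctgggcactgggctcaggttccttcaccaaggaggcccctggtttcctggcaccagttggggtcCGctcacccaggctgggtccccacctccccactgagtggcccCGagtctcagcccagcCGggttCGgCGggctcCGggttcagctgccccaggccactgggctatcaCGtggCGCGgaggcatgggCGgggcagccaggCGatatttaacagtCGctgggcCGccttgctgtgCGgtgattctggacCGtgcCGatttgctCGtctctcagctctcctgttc

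Ocm: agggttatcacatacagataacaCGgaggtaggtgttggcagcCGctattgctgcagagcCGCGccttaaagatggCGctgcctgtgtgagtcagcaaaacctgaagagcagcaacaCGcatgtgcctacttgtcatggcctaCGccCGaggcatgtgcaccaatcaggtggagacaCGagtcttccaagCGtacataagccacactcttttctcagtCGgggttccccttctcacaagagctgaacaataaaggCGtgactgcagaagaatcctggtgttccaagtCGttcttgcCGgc

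Ptprn: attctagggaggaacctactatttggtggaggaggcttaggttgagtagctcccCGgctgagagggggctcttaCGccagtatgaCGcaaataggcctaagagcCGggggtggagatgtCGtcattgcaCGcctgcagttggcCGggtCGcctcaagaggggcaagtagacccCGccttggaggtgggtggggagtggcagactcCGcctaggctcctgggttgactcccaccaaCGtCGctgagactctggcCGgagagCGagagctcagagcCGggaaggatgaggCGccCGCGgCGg

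At least as many CG as in Plin2 were found in 29% of 33469 promoters of this length, as in Ocm in 33.5% and as in Ptprn in 25.7%. Of the 24 genes named below, 19 had a promoter in the table. The median number of CG was 17 in 9 genes with a more positive drug effect in FE8 (4 to 56), 14 in 10 genes with a more negative one (6 to 23), and 21 in the 2437 measured genes with a promoter. These are counts of letters, and methylation was not measured by these arrays.

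Both untreated arrays were run in session 1 on chips of lot 1, and all treated arrays in session 2. Treated 208F replicate 1 was run on lot 2 on a day of its own, and the other 3 treated arrays on lot 3. Within a line, the effects of drug and of session cannot be told apart. In the difference a session effect drops out only where it was equal for both lines in log2 units, which was not tested. The difference also equals the line difference (FE8 minus 208F) with the drug minus that without it, and without treated 208F replicate 1 both of these line differences lie within a lot. Between 13.55% and 13.76% of probe sets were at a signal of 64 or less in the untreated arrays and 7.1% to 9.92% in the treated ones. The ratio of 5' to 3' signal of beta-actin, a sign of RNA quality, was 0.824 in untreated 208F and 0.351 to 0.529 in the 5 other arrays. The same ratio for GAPDH was 0.691 in untreated FE8 and 0.916 to 1.132 in the 5 others. Of 11 fibroblast markers, 8 were measured, and their summed signal was 96120 in untreated and 74398 and 56476 in treated 208F, and 52116 in untreated and 33593 and 34193 in treated FE8. It was thus lower with the drug in both lines and lower in FE8. Epithelial genes (8 of 22 measured) summed to 412 in untreated and 5433 and 4819 in treated 208F, and to 2125 in untreated and 8193 and 9745 in treated FE8. The part of either list in the results was not tested. Those of macrophages (1 of 7 measured), endothelium (2 of 6) and neurons (2 of 6) summed to between 82 and 542 in every array. Those of adipocytes (3 of 6) summed to between 1988 and 3073. Hras was not among the measured genes. Each array averages over a culture, so fewer expressing cells and less RNA per cell cannot be told apart in any value below.

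The drug effects of the lines ran broadly together, and few probe sets departed from this far enough to pass the test. The drug effect was called in 250 probe sets in 208F (5.19% of those tested), 173 upward (3.59%) and 77 downward (1.6%). In FE8 it was called in 393 (8.16%), 244 upward (5.06%) and 149 downward (3.09%). Of these, 125 were called in both lines, which is 50.0% of the 208F calls and 31.8% of the FE8 calls, and all 125 had the same sign in both. Across probe sets, which are not independent replicates, the effects of the lines correlated with r = 0.628 (rho = 0.57), and 71.0% had the same sign. No array is shared between these effects, but both compare a later session with an earlier one. A call in one line alone was seldom a called difference. Of the 125 probe sets called in 208F and not in FE8, 98 had the same sign in FE8 and 1 had a called difference. By limma's test of the difference, 73 of the 125 were at an unadjusted p under 0.05. Of the 268 called in FE8 and not in 208F, 243 had the same sign in 208F and 0 had a called difference. By that test 118 of the 268 were at an unadjusted p under 0.05, against 364 of all 4818. The calls and the difference share arrays, so these counts are descriptions.

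**Figure D1:**
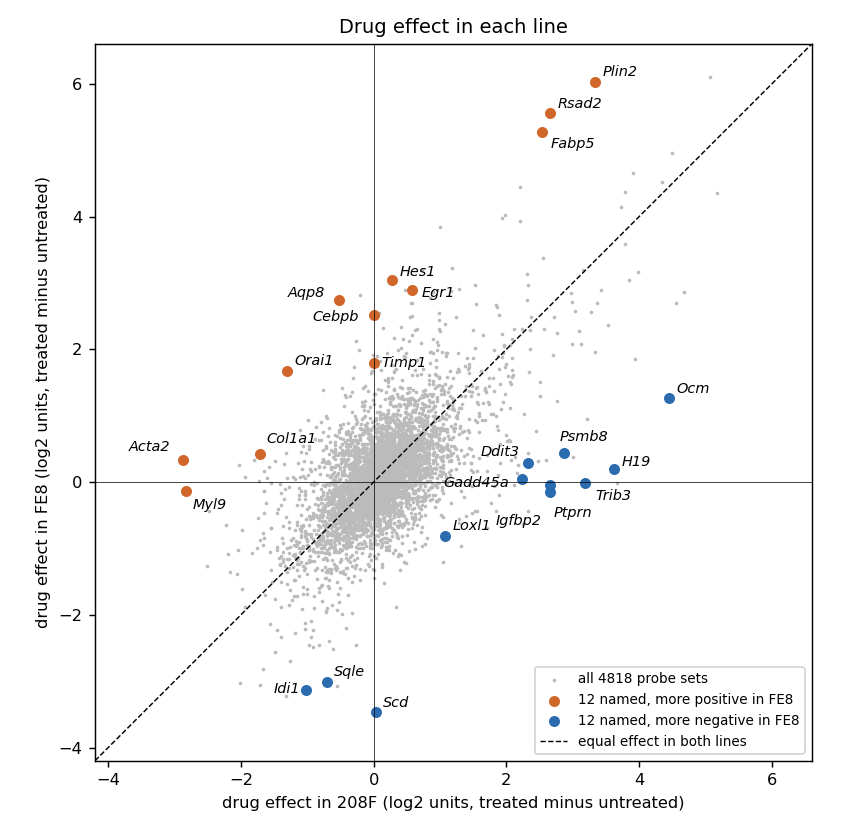
Each point is a probe set, placed by its drug effect in 208F (x axis) and in FE8 (y axis), both in log2 units, and the dashed line marks equal effects. The 12 named genes with a more positive effect in FE8 (orange) lie above the line, where Plin2 stands at 3.34 and 6.03, and the 12 with a more negative one (blue) below it, where Ocm stands at 4.45 and 1.26.

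The difference itself was called in 3 of 4818 probe sets (0.0623%), 1 positive (0.0208%) and 2 negative (0.0415%), by limma's moderated test with Benjamini-Hochberg adjustment at 0.05. After scaling the arrays to equal medians there were 27, 15 positive and 12 negative. Its median was -0.04, and 90% of probe sets lay between -0.98 and 0.99 (5th and 95th percentiles). An absolute difference of at least 1 was seen in 467 probe sets (9.69%) and of at least 2 in 61. The median standard error was 0.52, larger for dim probe sets (0.58 below a mean signal of 200) than for bright ones (0.47). No absolute difference under 2.69 was called, and one of 3.67 was not, that of the second H19 probe set. There were 22 probe sets at an adjusted p under 0.06 and 31 under 0.1, the called 3 included. At an unadjusted p under 0.05 there were 364, of which 181 were positive (3.76%) and 183 negative (3.8%). Counting genes once, by their brightest probe set, 92 of 2890 were positive at that level (3.18%) and 110 negative (3.81%).

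Which genes pass depends strongly on single arrays. Without treated FE8 replicate 1 or 2 there were 0 calls, with 244 and 283 probe sets at an unadjusted p under 0.05. Without treated 208F replicate 1, the fit whose line differences lie within lots, there were 206 calls, and without replicate 2 there were 99. In both of those fits the prior degrees of freedom were infinite, so that probe sets of like intensity shared 1 error whatever their own spread, and their small adjusted p-values rest on that. The prior degrees of freedom were 5.58 and 5.62 without an FE8 array and 9.02 with all arrays. The untreated arrays have no replicate and cannot be left out. For this reason each gene below is given with a statement of which arrays set its difference. A group of arrays was said to stand apart when the gap between its mean and the nearest of the 3 other group means exceeded the range of those 3. An untreated array was said to be at the floor at a signal of 64 or less, the 10th percentile of the values tested.

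Plin2, which encodes the lipid droplet coat protein perilipin 2, rose in both lines and rose further in FE8. Its signals (probe set rc_AA893280_at) were 96 in the 208F control against 1568 and 1551 after the drug, and 38 in the FE8 control against 6483 and 6738 after it. All 4 treated arrays were above both untreated ones, and both treated FE8 arrays were above both treated 208F arrays. The effect of the drug was 3.34 ± 0.27 in 208F (n = 2 against 1) and 6.03 ± 0.27 in FE8 (n = 2 against 1), and the difference was 2.69 ± 0.39 (adjusted p = 0.038). Untreated FE8 was at the floor, and the size of the difference moved with the pseudocount and other choices from 2.18 to 3.12. No single group stood apart, and the line difference was larger with the drug (2.04 ± 0.22) than without it (-0.65 ± 0.32). A second, dim probe set gave 0.94 ± 0.55.

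Ocm, which encodes oncomodulin, a small calcium-binding protein of the parvalbumin family, rose in both lines, by less in FE8. Its signals were 74 for 208F alone, 3518 and 2490 for 208F given the drug, 1699 for FE8 alone, and 4030 and 4291 for FE8 given it. Untreated 208F alone was low, and it lay just above the floor. Effects of 4.45 ± 0.29 in 208F and 1.26 ± 0.29 in FE8 gave a difference of -3.19 ± 0.41 (adjusted p = 0.038). The line difference was 3.68 ± 0.33 without the drug and 0.48 ± 0.24 with it, so that the difference came from the low signal of that 1 untreated array.

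Ptprn, which encodes a phosphatase-like protein of secretory granules, rose in 208F, and its effect in FE8 did not pass the test. Its signals were 35 without and 527 and 595 with the drug in 208F, and 3277 without and 3016 and 2888 with it in FE8. Untreated 208F was at the floor and stood apart as the low group, while untreated FE8 was the highest of the 6 arrays. In 208F the drug effect was 2.66 ± 0.28 and in FE8 -0.15 ± 0.28, with a difference of -2.80 ± 0.39 (adjusted p = 0.038). With a pseudocount 4 times as large the difference was -1.63 (adjusted p = 0.096) and untreated 208F no longer stood apart.

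All 3 calls were lost after quantile normalization (adjusted p = 0.11 for each), with a replicate block (0.13 for each), without an intensity trend, with a filter on mean signal and without either treated FE8 array. The differences stayed about as large, at 2.75 for Plin2, -2.98 for Ocm and -2.53 for Ptprn after quantile normalization. Ocm, like Ptprn, also lost its call with a pseudocount 4 times the main value (-2.11, adjusted p = 0.069). Within lots, without treated 208F replicate 1, the differences were 2.70 for Plin2, -2.95 for Ocm and -2.88 for Ptprn. Over all alternatives the adjusted p ran from 1.2e-06 to 0.48 for Plin2, 2.3e-14 to 0.48 for Ocm and 3.3e-08 to 0.48 for Ptprn, smallest without a treated 208F array.

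For 21 further named genes the difference did not pass the test, and their values are descriptions. They were those of smallest p in each direction, and all 24 named genes had a difference of the same sign in all 4 combinations of a treated FE8 with a treated 208F array. Where such a gene had more than 1 probe set, every other one had the same sign.

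**Figure D2:**
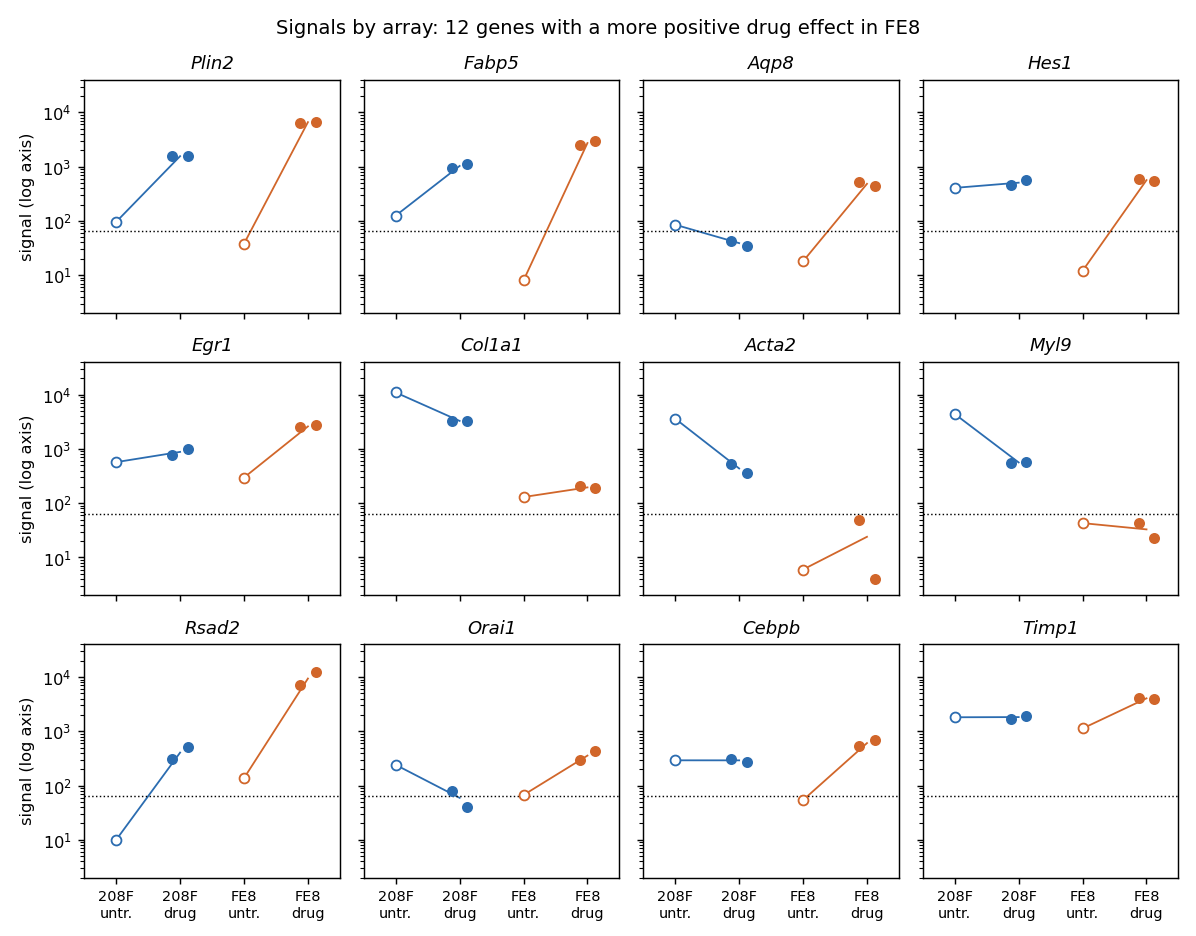
Signal on a log axis for 12 genes with a more positive drug effect in FE8, with open circles for the untreated array and filled circles for the 2 treated arrays of 208F (blue) and FE8 (orange). Lines join the untreated array to the mean of the treated arrays on log2(signal + 64), and the dotted line marks the floor of 64, below which untreated FE8 lay for 7 of the 12 genes.

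**Figure D3:**
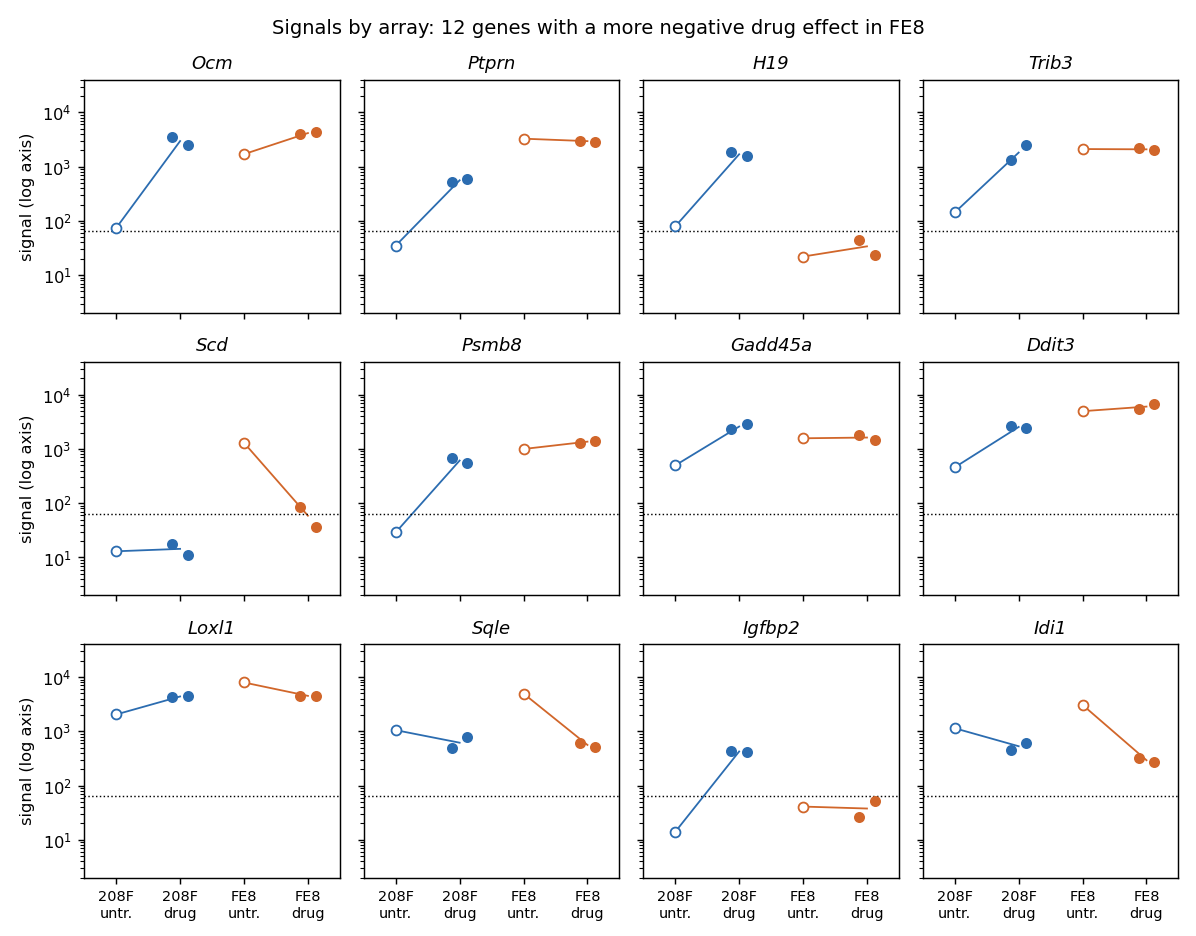
The same plot for 12 genes with a more negative drug effect in FE8. Untreated 208F stands apart as the low group in 7 of them, among them Ocm at 74 and Ptprn at 35, and treated 208F stands apart as the high group for H19 and Igfbp2.

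Among lipid genes, Fabp5, a fatty acid binding protein, followed the pattern of Plin2. Its signals were 125 in the 208F control against 928 and 1142 after the drug, and 8 in the FE8 control against 2493 and 2977 after it. It rose in both lines, by 2.53 ± 0.31 in 208F and by 5.28 ± 0.31 in FE8, and the difference was 2.74 ± 0.44 (adjusted p = 0.051). Untreated FE8 was at the floor, and the difference was 3.94 with a pseudocount of 16 (adjusted p = 0.012) and 1.74 with one 4 times the main value (adjusted p = 0.096, and 1.2e-05 to 0.49 over all alternatives). Scd, the stearoyl-CoA desaturase that makes monounsaturated fatty acids, went the other way. It stood at 13 for 208F alone, 18 and 11 for 208F given the drug, 1300 for FE8 alone, and 87 and 36 for FE8 given it. The high signal of 1 untreated array, FE8, set this difference of -3.50 ± 0.59 (adjusted p = 0.055), since all 208F arrays were at the floor. A second Scd probe set read 10 or less in all arrays and gave -0.09. Over 18 measured genes of lipid storage and fatty acid metabolism, 1 difference was called (Plin2), and the median was -0.36. At limma's unadjusted p under 0.05, 3 were positive and 4 negative. Over all genes, by their brightest probe set, 3.18% were positive and 3.81% negative at that level, the background for every list here.

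Genes of cholesterol synthesis had lower differences throughout. All 15 measured members had a negative difference, 9 at an unadjusted p under 0.05 (3.81% of all genes) and 0 called by limma. The median was -1.07 (-1.22 to -0.98 over all alternatives) against -0.06 over all genes. Falls under the drug were called for 11 of 15 in FE8 (3.09% of all probe sets) and for 3 of 15 in 208F (1.6%). Rises were called for none in either line (5.06% of all probe sets in FE8 and 3.59% in 208F). The lists count each gene once, by its brightest probe set. Counted so over all 2890 genes, falls were called for 93 in FE8 and 38 in 208F, and rises for 143 and 99. Untreated FE8 was the highest of the 6 arrays for all 15 members of the list (18.2% of all probe sets). It stood apart as the high group for 10 (7.7%). None was at the floor in an untreated array. The median line difference of the list was 1.01 without the drug and -0.11 with it. Each line had 1 untreated array, so this list's values rest on those 2 arrays more than on the treated ones. Untreated FE8 also had the lowest 5' to 3' ratio for GAPDH, 0.691, and its part in these values was not tested.

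Sqle, squalene epoxidase, an oxygen-dependent step of the pathway, read 1051 without and 483 and 783 with the drug in 208F, and 4970 without and 617 and 509 with it in FE8. Treated arrays of both lines overlapped. The effect in FE8 was -3.01 ± 0.33 (adjusted p = 3.0e-04), that in 208F was -0.71 ± 0.33, and the difference was -2.30 ± 0.46 (adjusted p = 0.077), set by the high untreated FE8 array. Idi1, the isomerase that makes dimethylallyl diphosphate, gave 1139 in the 208F control against 456 and 616 after the drug, and 3065 in the FE8 control against 318 and 270 after it. Treated FE8 was below treated 208F while untreated FE8 was the highest array, so no single group stood apart, and the difference was -2.11 ± 0.44 (adjusted p = 0.089). The sterol reductase Dhcr7 (-1.51 ± 0.52) and the lanosterol demethylase Cyp51 (-1.39 ± 0.40) were next in size, both with untreated FE8 as the high group.

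Stress genes of the endoplasmic reticulum and of amino acid shortage also had lower differences. Of 19 measured, 18 were negative and 1 positive. At an unadjusted p under 0.05, 9 were negative (3.81% of all genes), and 0 were called by limma. The median was -1.04 (-1.06 to -0.79 over all alternatives). Untreated 208F stood apart as low for 5 members, Trib3, Ddit3, Slc3a2, Ppp1r15a and Asns (9.22% of all probe sets), and untreated FE8 as high for 3 (7.7%), the chaperones Hspa5 and Canx and the disulfide isomerase Pdia3. No single group stood apart for 10, close to the 52.8% of all probe sets. The drug effect was called upward for 4 members in 208F (3.59% of all probe sets) and 1 in FE8 (5.06%). It was called downward for 0 in 208F (1.6%) and 4 in FE8 (3.09%).

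Trib3, a pseudokinase induced by ATF4 and CHOP, gave signals of 143 for 208F alone, 1302 and 2524 for 208F given the drug, 2111 for FE8 alone, and 2178 and 1996 for FE8 given it. Untreated 208F alone was low, above the floor, and the 5 other arrays overlapped across lines. Its rise in 208F was 3.18 ± 0.36 (adjusted p = 4.7e-04), and the effect in FE8 was -0.02 ± 0.36. The difference was -3.20 ± 0.51 (adjusted p = 0.051). A dimmer Trib3 probe set had untreated 208F at the floor, at 40, and gave a smaller difference, -1.99 ± 0.53. Ddit3, which encodes CHOP, a transcription factor of the unfolded protein response, read 459 without and 2642 and 2455 with the drug in 208F, and 4972 without and 5429 and 6724 with it in FE8. It too rose in 208F (2.32 ± 0.27), its effect in FE8 was 0.28 ± 0.27, and untreated 208F was the low group, well above the floor (difference -2.04 ± 0.38, adjusted p = 0.055). By contrast the chaperone Hspa5 (BiP) fell in FE8 by 1.23 on the log2 scale (adjusted p = 0.02), from 11380 to 4359 and 5342. In 208F it read 5812 untreated, and 5405 and 5526 treated, and the high untreated FE8 array set the difference of -1.14 ± 0.39. The disulfide isomerase Pdia4 had a difference of -1.31 ± 0.45 with no single group apart.

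Among growth arrest genes, Gadd45a, a sensor of DNA damage and stress, rose in 208F. Its signals were 498 in the 208F control against 2292 and 2928 after the drug, and 1574 in the FE8 control against 1779 and 1484 after it. Untreated 208F was the low group, not at the floor. Its effect was 2.24 ± 0.28 in 208F and 0.04 ± 0.28 in FE8, with a difference of -2.20 ± 0.40 (adjusted p = 0.055). Its 3 other probe sets were negative as well. The brightest gave a smaller difference, -1.53 ± 0.41, with no group apart. The remaining ones gave -2.75 ± 0.61 and -2.88 ± 1.29, the latter with treated 208F at 196 and 2086. The growth arrest transcript Gas5 (-1.29 ± 0.39) and the antiproliferative gene Btg1 (-1.16 ± 0.43) were the other members at an unadjusted p under 0.05. Rises were called for 5 of the 9 measured genes in 208F (3.59% of all probe sets) and for 3 in FE8 (5.06%). Cdkn1a, the cyclin-dependent kinase inhibitor p21, rose by 3.91 in 208F and by 4.65 in FE8 (difference 0.73 ± 0.56), and Mdm2, the ligase that degrades p53, by 1.31 and 1.30 (difference -0.01 ± 0.37). Over the list, 3 differences were negative (3.81% of all genes) and 0 positive (3.18%) at limma's unadjusted p under 0.05, with 0 called. The median was -0.09 (-0.79 to -0.07 over all alternatives).

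Interferon response genes mostly had positive differences, with treated FE8 as the high group. Rsad2 (viperin), an antiviral enzyme induced by interferon, had signals of 10 for 208F alone, 313 and 520 for 208F given the drug, 137 for FE8 alone, and 7218 and 12230 for FE8 given it. Both treated FE8 arrays were above all others. It rose by 2.66 ± 0.38 in 208F and by 5.56 ± 0.38 in FE8, and the difference was 2.89 ± 0.54 (adjusted p = 0.055). Untreated 208F was at the floor, which holds down its own rise and so enlarges the difference. With a pseudocount of 16 the difference was 1.93 (adjusted p = 0.32), and with one 4 times the main value it was 3.30 (adjusted p = 0.023, and 1.4e-08 to 0.59 over all alternatives). Irf7, the transcription factor that amplifies interferon production, read 330 without and 770 and 890 with the drug in 208F, and 346 without and 2497 and 5724 with it in FE8. Its untreated arrays lay close together, treated FE8 was the high group, and the difference was 2.05 ± 0.58 (adjusted p = 0.24).

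Of 10 measured interferon response genes, 9 had a positive difference. At an unadjusted p under 0.05, 5 were positive (3.18% of all genes), and 0 were called by limma. The median was 1.05 (0.69 to 1.37 over all alternatives). A rise was called for 1 gene in 208F (Rsad2; 3.59% of all probe sets) and for 5 in FE8 (5.06%). Treated FE8 stood apart as the high group for 7 of 10 (5.62% of all probe sets), and an untreated array for none (30.9%). The treated duplicates differed for several members. Eif2ak2, the RNA-dependent kinase PKR, read 632 and 1634 in treated 208F, and 1586 and 2157 in treated FE8, which overlap. Mx2, an antiviral GTPase, read 46 and 167 in treated 208F, and 298 and 880 in treated FE8. The chemokine Cxcl10 had effects of 1.18 in 208F and 1.16 in FE8 (difference -0.02 ± 0.44).

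Psmb8, a catalytic subunit of the immunoproteasome that interferon also induces, had a difference of the opposite sign. Its signals were 29 in the 208F control against 686 and 545 after the drug, and 999 in the FE8 control against 1303 and 1429 after it. The low group was untreated 208F, at the floor. It rose in 208F by 2.86 ± 0.31 (adjusted p = 3.6e-04), its effect in FE8 was 0.43 ± 0.31, and the difference was -2.43 ± 0.44 (adjusted p = 0.055). Among 11 measured genes of MHC class I and the immunoproteasome it was the only one at an unadjusted p under 0.05, and the median of the list was 0.15.

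Of 12 measured actin and contractile genes, 8 had a positive difference and 4 a negative one. Acta2, smooth muscle actin, read 3617 for 208F alone, 519 and 367 for 208F given the drug, 6 for FE8 alone, and 50 and 4 for FE8 given it. It fell in 208F by 2.88 on the log2 scale (adjusted p = 0.003), and all FE8 arrays were at the floor, where a fall could not be measured. The high signal of untreated 208F set the difference of 3.21 ± 0.60 (adjusted p = 0.055). A brighter Acta2 probe set, with FE8 signals of 244 without and 342 and 267 with the drug, gave 2.28 ± 0.43, again with untreated 208F as the high group. Myl9, a regulatory light chain of myosin, read 4411 without and 545 and 585 with the drug in 208F, and 43 without and 44 and 23 with it in FE8. In this probe set the difference of 2.69 ± 0.51 (adjusted p = 0.055) likewise came from untreated 208F with FE8 at the floor. The other Myl9 probe set, at 116 in untreated FE8, gave 1.60 ± 0.51. The brightest Acta2 probe set, at 108 in untreated FE8, gave 2.04 ± 0.50. No group stood apart in either of these, though untreated 208F was the highest array in both. With a pseudocount of 16 untreated 208F no longer stood apart for either gene in the probe set named first.

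The caldesmon gene Cald1, which encodes an actin and calmodulin binding protein, had another pattern. It rose in FE8 by 1.90 (adjusted p = 0.0057), from 14, at the floor, to 237 and 219. In 208F it was at 1058 untreated, and 972 and 1246 treated (difference 1.85 ± 0.48). No single group stood apart. In this list 6 were positive (3.18% of all genes) and 1 negative (3.81%) at limma's unadjusted p under 0.05, with 0 called. The median was 1.00 (0.73 to 1.18 over all alternatives). Falls were called for 5 in 208F (1.6% of all probe sets) and 0 in FE8 (3.09%), and rises for 0 in 208F (3.59%) and 1 in FE8 (5.06%). The calponin Cnn3 was on the negative side (-1.24 ± 0.37), with its lowest signal, 1635, in untreated 208F and 3252 to 4021 in FE8. Untreated 208F was the highest of the 6 arrays for 9 of 12 (16.3% of all probe sets). That array also had the largest 5' to 3' ratio for beta-actin, 0.824, and its part in these values was not tested.

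Matrix genes divided in sign. Col1a1, a chain of type I collagen, read 11000 in the 208F control against 3243 and 3338 after the drug, and 130 in the FE8 control against 204 and 188 after it. It fell in 208F by 1.72 (adjusted p = 0.0045), its effect in FE8 was 0.42 ± 0.27, and the difference was 2.14 ± 0.39 (adjusted p = 0.055). Its probe sets did not agree on the fall in 208F. Of the 3 others, the brighter M27207mRNA_s_at read 10934 without and 12811 and 13955 with the drug in 208F, an effect of 0.29 ± 0.30, and gave a difference of 0.64 ± 0.43, while the remaining ones had effects of -1.35 and -1.80 there and differences of 1.62 and 2.13. In the probe set named first, untreated 208F was the highest array but did not stand apart from the treated 208F arrays by the rule, and no untreated array was at the floor. The other chain, Col1a2, fell in FE8 by 1.93 (adjusted p = 0.0033), with a difference of -1.37 ± 0.44. Its signals were 13772 for 208F alone, 11195 and 7773 for 208F given the drug, 5073 for FE8 alone, and 1479 and 1108 for FE8 given it. For this gene treated FE8 was the low group. A further collagen gene, Col5a2, fell in FE8 by 2.21 with a difference of -1.18 ± 0.42.

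Loxl1, a lysyl oxidase that cross-links elastin, read 2044 without and 4344 and 4430 with the drug in 208F, and 7943 without and 4521 and 4480 with it in FE8. The 4 treated arrays lay within a narrow band between the untreated arrays. Its rise in 208F was 1.08 ± 0.26 (adjusted p = 0.037), its effect in FE8 was -0.81 ± 0.26, and the difference was -1.89 ± 0.37 (adjusted p = 0.065). Untreated 208F was the low group, not at the floor, and untreated FE8 the highest array. A second, dimmer Loxl1 probe set gave a smaller difference, -1.42 ± 0.37, with no group apart. Its effect in 208F, 0.73 ± 0.26, was not called. Timp1, an inhibitor of matrix metalloproteinases, read 1815 in the 208F control against 1718 and 1947 after the drug, and 1127 in the FE8 control against 4179 and 3939 after it. Treated FE8 stood apart as high, no array was near the floor, and the difference was 1.78 ± 0.37 (adjusted p = 0.089). A brighter Timp1 probe set gave a smaller difference, 1.17 ± 0.42, also with treated FE8 as the high group. Of 21 measured matrix genes, 3 were positive (3.18% of all genes) and 4 negative (3.81%) at limma's unadjusted p under 0.05, with 0 called. The median was 0.67 (0.40 to 0.69 over all alternatives). Of 24 secreted proteases and inhibitors, 5 were positive and 2 negative at that level, and the median was 0.08.

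Hes1, a repressor downstream of Notch, read 406 for 208F alone, 460 and 557 for 208F given the drug, 12 for FE8 alone, and 594 and 536 for FE8 given it. The 5 other arrays overlapped across lines, and the difference of 2.77 ± 0.49 (adjusted p = 0.055) came from the floor signal of untreated FE8. Cebpb, a transcription factor of inflammation and fat cell differentiation, read 292 without and 308 and 276 with the drug in 208F, and 54 without and 539 and 681 with it in FE8. Its difference of 2.51 ± 0.50 (adjusted p = 0.074) also had untreated FE8 as the low group, at the floor. A brighter Cebpb probe set, at 1547 in untreated FE8 and 1075 to 3027 over all arrays, gave 0.22 ± 0.50, so the floor was seen with 1 of 2 probe sets.

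Egr1, an immediate early transcription factor induced by ERK signalling, read 572 in the 208F control against 783 and 996 after the drug, and 297 in the FE8 control against 2504 and 2712 after it. Treated FE8 stood apart as high, and no array was at the floor. It rose in FE8 by 2.89 ± 0.29 (adjusted p = 1.6e-04), the effect in 208F was 0.58 ± 0.29, and the difference was 2.31 ± 0.41 (adjusted p = 0.055). A second probe set, at 2798 in FE8 without and 21256 and 20151 with the drug, gave 1.96 ± 0.41. The remaining Egr1 probe sets, both dimmer, gave 1.92 ± 0.55 and 0.87 ± 0.51. Its relative Egr2 had a difference of 1.74 ± 0.54, while the ERK phosphatase Dusp6 (-1.34 ± 0.40) and the AP-1 subunit Fosl1 (-1.14 ± 0.46) were on the negative side. Among 22 measured genes of RAS-MAPK output, 2 were positive (3.18% of all genes) and 2 negative (3.81%) at an unadjusted p under 0.05. By limma 0 were called, and the median was 0.23. Rises were called for 3 in 208F (3.59% of all probe sets) and 7 in FE8 (5.06%).

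Among genes of channels, Aqp8, a water channel, read 85 for 208F alone, 43 and 35 for 208F given the drug, 18 for FE8 alone, and 530 and 439 for FE8 given it. Only treated FE8 was clearly above the floor, so that group set the difference of 3.27 ± 0.54 (adjusted p = 0.055), whose size ran from 1.64 to 4.75 over the alternatives. Orai1, the pore of the store-operated calcium channel, read 241 without and 81 and 41 with the drug in 208F, and 67 without and 294 and 430 with it in FE8. No single group stood apart, and the difference of 2.99 ± 0.58 (adjusted p = 0.065) joined an effect of -1.31 ± 0.41 in 208F with a rise of 1.68 ± 0.41 in FE8 (adjusted p = 0.031). Untreated FE8 lay just above the floor and treated 208F replicate 2 below it. The size of this difference ran from 1.58 to 3.95 over the alternatives.

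H19 and Igfbp2 were high in treated 208F alone. H19, an imprinted non-coding RNA, read 79 in the 208F control against 1830 and 1560 after the drug, and 22 in the FE8 control against 45 and 24 after it. It rose in 208F by 3.62 ± 0.38 (adjusted p = 2.7e-04), all FE8 arrays were at the floor, and the difference was -3.43 ± 0.53 (adjusted p = 0.051). The second probe set gave -3.67 ± 0.67. Igfbp2, a binding protein for insulin-like growth factors, read 14 for 208F alone, 429 and 421 for 208F given the drug, 41 for FE8 alone, and 26 and 51 for FE8 given it. Its rise in 208F was 2.65 ± 0.39, and the difference was -2.69 ± 0.55 (adjusted p = 0.087), with all arrays but those of treated 208F at the floor. The second Igfbp2 probe set gave a smaller difference, -1.41 ± 0.63, with treated FE8 at 61 and 106. For both genes the untreated arrays were low in both lines, and the treated group set the difference. Of 11 measured imprinted genes, 1 difference was positive and 2 negative at an unadjusted p under 0.05, the other negative one being that of the growth factor receptor adaptor Grb10 (-1.11 ± 0.45). Igf2, the neighbour of H19, had a difference of 0.19 ± 0.65.

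**Figure D4:**
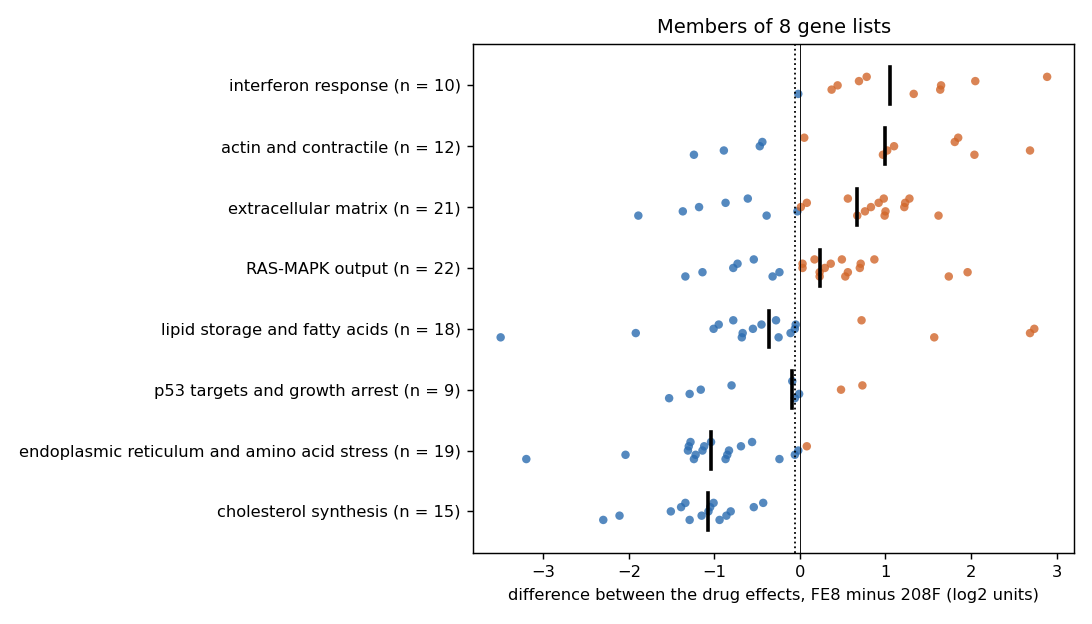
Difference between the drug effects (FE8 minus 208F, log2 units) for the measured members of 8 gene lists, orange where positive and blue where negative, spread vertically for legibility. Black bars mark list medians, from 1.05 for interferon response to -1.07 for cholesterol synthesis, and the dotted line marks the median of all genes, -0.06.

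Over all genes the quartiles of the difference were -0.37 and 0.27, and the medians of most lists not yet described lay between them. The 36 measured ribosomal proteins had a median of 0.03 with 0 at an unadjusted p under 0.05 in either direction. For 31 genes of DNA replication and mitosis the median was 0.15, and for 30 of mitochondrial respiration it was -0.07. It was -0.17 for 24 transporters and channels, with 3 positive and 3 negative at that level, and between -0.22 and 0.13 for the lists of cytokines, glutathione metabolism, glycolysis, epithelium, muscle, germline, TGF-beta, growth factors, chromatin, fibroblasts and adipocytes. The germline and oncofetal list, with 5 measured genes and a median of 0.02, held 1 called difference, the negative one of Ocm. Marker lists with 1 or 2 measured genes had medians of 0.26 (macrophages), 0.50 (endothelium) and 0.56 (neurons).

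The medians of 2 larger lists lay above the upper quartile of all genes. Growth-restraining genes known to be silenced by RAS (7 measured) had a median of 0.49 (0.40 to 0.89 over the 4 combinations of treated arrays), with 2 positive and 1 negative at an unadjusted p under 0.05 and 0 called by limma. Among them Cav1, the coat protein of caveolae, had a difference of 1.58 ± 0.54, and Lox, which cross-links collagen, one of -0.87 ± 0.38. Neural and neuroendocrine genes (13 measured) had a median of 0.35, whose sign changed with the treated arrays used (-0.46 to 0.48 over the 4 combinations), with 1 positive and 2 negative at that level. Ptprn was the only one called, and Th, the rate-limiting enzyme of catecholamine synthesis, had a difference of 1.55 ± 0.47.

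Dnmt1, the maintenance methyltransferase that the drug traps, had a difference of 0.54 ± 0.40, with signals of 1228 without and 952 and 829 with the drug in 208F, and 855 without and 878 and 973 with it in FE8. Clu, clusterin, a secreted chaperone, read 5639 in the 208F control against 11176 and 7531 after the drug, and 2136 in the FE8 control against 3799 and 3293 after it. Its drug effects were 0.70 in 208F and 0.71 in FE8, and the difference was 0.01 ± 0.43.

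Across the 24 named genes, 1 untreated array stood apart for 13, 1 treated group for 6, and no group for 5. Groups and floor signals here are those of the probe set named first for each gene. Untreated 208F was low for Ocm, Ptprn, Trib3, Psmb8, Gadd45a, Ddit3 and Loxl1. Of these only Ptprn and Psmb8 were at the floor there, though a dimmer Trib3 probe set was at the floor too. For Gadd45a and Loxl1, untreated 208F did not stand apart in every probe set. Untreated 208F was high for Acta2 and Myl9, though not in every probe set of either gene. Untreated FE8 was low, at the floor, for Hes1 and Cebpb, and high for Scd and Sqle. The brighter Cebpb probe set had treated FE8 high instead and was not at the floor. A dim Scd probe set did not have untreated FE8 as the high group. Treated FE8 was high for Aqp8, Egr1, Rsad2 and Timp1, and treated 208F for H19 and Igfbp2. In 1 Egr1 probe set no group stood apart. No group stood apart for Plin2, Fabp5, Col1a1, Orai1 and Idi1. A second, dim probe set had treated FE8 high for Plin2 and untreated FE8 high for Idi1. At least 1 untreated array was at the floor for 13 of the 24, untreated 208F for 5 and untreated FE8 for 9.

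The same count over many probe sets gives the background. One untreated array stood apart for 30.9% of all 4818 probe sets and for 44.5% of the 364 at an unadjusted p under 0.05. A treated group stood apart for 16.3% and 20.3%, and none for 52.8% and 35.2%. At least 1 untreated array was at the floor for 18.0% of all and 22.8% of the 364. An untreated array was the highest of the 6 for 34.5% and 52.2%. The line difference was larger in size without the drug than with it for 60.5% of all and 72.3% of the 364, and for 16 of the 24 named. Selecting on the difference favours a group that stands apart, so these shares are descriptions and no test was made.

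**Figure D5:**
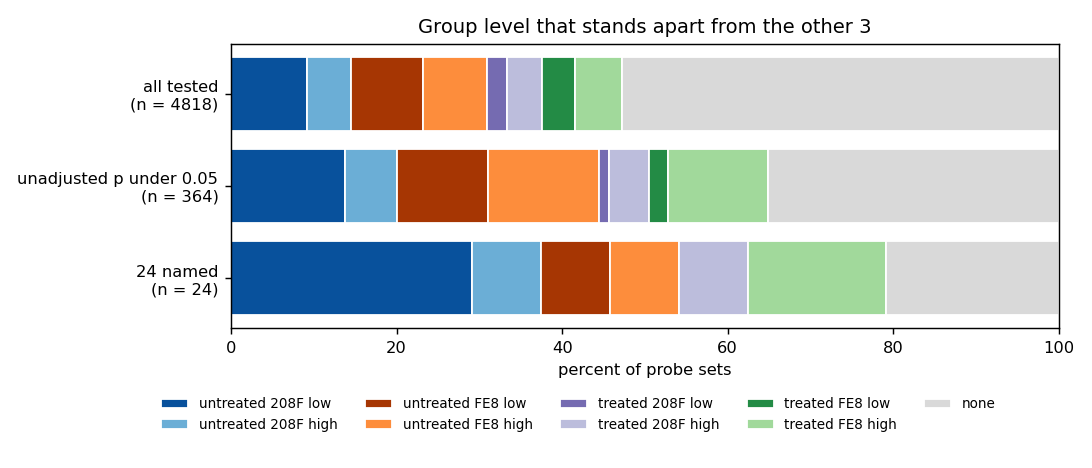
Percent of probe sets for which 1 of the 4 groups stands apart from the other 3, by group and direction, over all 4818 tested probe sets, the 364 at an unadjusted p under 0.05 and the 24 named genes. Blue and orange segments, the untreated arrays, take 30.9% of all probe sets and 44.5% of the 364, and 13 of the 24 named genes.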

How the data were processed

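The deposited values are linear signal intensities, 1 per probe set, as whole numbers. MAS5 is named in the submitters' processing notes, with no version. Of the array's probe sets, 4847 were in the table, and the filter that left them is not given in the sources used here. Column means lay between 1258.0 and 1389.5, so the authors' scaling was kept. Chip lots and sessions were read from the instrument's deposited settings records. A second scan of treated FE8 replicate 2 had a settings record and was not analysed here. Signals were taken as log2(signal + 64) by this work, and a model of 4 group means was fitted to all 6 arrays with limma 3.58.1 in R 4.3.3 (eBayes with an intensity trend, 2 residual and 9.02 prior degrees of freedom), checked on simulated data. Errors after ± are standard errors of that fit, which gives the single untreated arrays the spread of the treated pairs. The number of arrays limits the precision.

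Tests were 2-sided with Benjamini-Hochberg adjustment over 4818 probe sets and a threshold of 0.05. Names came from the platform's table, updated by gene identifier to RefSeq GRCr8 symbols for 3942 probe sets. They gave 1 gene for 3956 probe sets (2890 genes), several for 207 and none for 655. Named genes were the 12 per direction with the largest called difference, filled with the smallest unadjusted p, with 1 probe set per gene (smallest p) and the same sign in all 4 combinations of treated arrays. Up to 4 members per list, up to 5 further genes per standing group and clusterin could be added. The members Cxcl10, Mx2, Cnn3, Mdm2, Cdkn1a, Hspa5, Canx, Pdia3, Ppp1r15a, Asns, Col5a2 and Igf2 were named after their values were seen. Lists (31, of 769 genes) used each gene's brightest probe set, which for some genes is not the probe set named in the text. Probe sets with an _s, _f, _i or _r suffix (956) may be shared between transcripts. The comparison, the members and the lists were chosen with earlier results of these data known. Alternatives were pseudocounts of 16 and of 4 times the main one, quantile normalization, scaling to equal medians, no intensity trend, a mean signal of at least 200, a replicate block and leaving out each treated array.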

Additional observations from a re-analysis of the deposited data

Results flagged for a closer look

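The count of probe sets for which the drug effects of the lines differed was 3 of 4818 by the test of the difference itself. Each of them is listed here because that test passed. The difference was 2.69 for Plin2, -3.19 for Ocm and -2.80 for Ptprn. No group had 4 or more arrays, so no array could be tested as standing apart from its group.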

How the results depend on the processing

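The count of called differences, 3, was 10 with a pseudocount of 16, 6 with one 4 times the main value and 27 (15 positive and 12 negative) after scaling to equal medians. It was 0 after quantile normalization, without an intensity trend, with a mean signal of at least 200 (3419 probe sets tested) and with a replicate block (smallest adjusted p = 0.13), where limma gave 316, 332, 312 and 499 probe sets at an unadjusted p under 0.05. Leaving out each treated array gave 0 to 206 calls, 0 without either FE8 array, 99 without 208F replicate 2 and 206 without 208F replicate 1. The drug effect was called in 165 probe sets in 208F and 258 in FE8 after quantile normalization, and in 75 to 663 and 76 to 783 on leaving out 1 treated array. The cause was not tested. All 24 named genes kept the sign of their difference under every alternative run that kept the gene. The difference of Clu, 0.01, was -0.01 with a pseudocount 4 times the main one and -0.13 after quantile normalization, and ran from -0.27 to 0.30 on leaving out 1 treated array. Treated arrays share replicate numbers, but with 2 pairs (r = 0.319 between deviations of same-numbered arrays) the numbers are not known to pair them. Medians of the 6 lists tried kept their sign. For probe sets near the floor of 64 the size of a difference moves with the pseudocount.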

Other observations

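Further genes for which 1 group of arrays stood apart had differences that did not pass the test, and are given as values. Treated FE8 alone was high for Plek, the platelet signalling protein pleckstrin, with signals of 9 for 208F alone, 21 and 6 for 208F given the drug, 9 for FE8 alone, and 370 and 360 for FE8 given it (difference 2.48 ± 0.55, adjusted p = 0.12). The same held for Nppb, which encodes a natriuretic peptide (2.47 ± 0.54), Irgm2, an interferon-inducible GTPase (2.42 ± 0.59), G0s2, an inhibitor of triglyceride lipase (2.39 ± 0.55), and the secreted phospholipase Pla2g2a (2.12 ± 0.65). The drug effect in FE8 was called upward for all 5 (5.06% of all probe sets). These genes were chosen for a large difference with treated FE8 high, so that count adds no support. Both untreated arrays were at the floor for 4 of them, the exception being Irgm2 at 120 and 160.

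Treated 208F alone was high for the xenobiotic-metabolising Cyp1b1 (-2.40 ± 0.67), the homeobox gene Msx1 (-2.28 ± 0.57), Ly6i (-2.08 ± 0.57), the vasopressin receptor Avpr1a (-2.02 ± 0.64) and the fatty acid binding protein Fabp3 (-1.92 ± 0.55). All FE8 arrays were at the floor for these 5 genes. Msx1 read 15 in untreated 208F, and 243 and 200 in treated 208F.

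Untreated 208F alone was low for Klf4, a transcription factor of differentiation, with 45 without and 443 and 1439 with the drug in 208F, and 900 without and 1032 and 1346 with it in FE8 (difference -2.63 ± 0.73). Untreated FE8 alone was high for the sulfotransferase Sult1b1, with 41 in the 208F control against 12 and 4 after the drug, and 2098 in the FE8 control against 110 and 314 after it (-2.53 ± 0.68). Untreated FE8 alone was low for the proteoglycan Sdc1, at 246 against 803 to 1211 in the 5 other arrays (1.93 ± 0.42, adjusted p = 0.11).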
